A study of Mus musculus with 16 samples.

Results

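A set of 9 genes for transcription factors of myeloid identity was described across the groups of an RNA sequencing study of mouse macrophages: Spi1, Cebpa, Cebpb, Cebpd, Cebpe, Maf, Klf2, Klf4 and Runx1. They were chosen by name as known factors of this lineage, with earlier results of these data known, and found in the deposited count table by Entrez identifier, as 9 of its 27179 rows. All 9 passed the filter on low counts and were among the 12589 genes tested. The cells were iBMDM, an immortalised line of bone-marrow-derived macrophages, which the labels call iBMDM MyD88-AGF with the genotype MyD88-AGF WT. The labels used here do not spell out AGF. Every group was this same line, so there was no group without the MyD88-AGF genotype. Cells received lipopolysaccharide (LPS, the glycolipid of the outer membrane of Gram-negative bacteria) at 10 ng/mL for 6 h, or none. A sorter then split LPS-treated cells by side scatter, the light deflected by structures inside a cell. The SSChi gate was labelled responder and the SSClo gate bystander. LPS-treated cells passed through the sorter without a gate (the LPS pool), and so did untreated cells, both after the gated cells had been collected. Each of the 4 groups had 4 libraries, and the labels do not say that these were separate cultures. The p-values therefore speak of the spread among these libraries alone, and that spread may be technical.

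PU.1, the product of Spi1, is an ETS-family factor that macrophages need throughout their life, and it binds many enhancers of this lineage together with C/EBP factors. The C/EBP family is made of basic leucine zipper proteins: C/EBP alpha drives progenitors towards granulocytes and monocytes, C/EBP beta and C/EBP delta are induced in inflammation, and C/EBP epsilon acts late in granulocyte maturation. The other members set the state of mature macrophages: c-Maf is linked to interleukin-10 and to self-renewal control, KLF2 and KLF4 restrain or shape inflammatory activation, and RUNX1 is a DNA-binding factor of blood stem cells and their progeny.

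Library totals ran from 15287344 to 25193162 reads. Levels are given as CPM, read counts as a rate of the library total after scaling with TMM factors (trimmed mean of M-values), as mean ± SD over 4 libraries. All 9 macrophage markers (Csf1r, Adgre1, Cd68, Itgam, Fcgr1, Mertk, Lyz2, Tyrobp and Cd14) passed the filter, with summed levels of 3510 to 3550 CPM in untreated libraries, 4530 to 4590 in the pool, 4010 to 4030 in bystanders and 4750 to 4810 in responders. The 8 neutrophil markers summed to at most 2.15 CPM, with 2 of them at 0 in every library. The 5 dendritic cell markers summed to 0.498 to 0.874 CPM in untreated libraries, 3.32 to 5.28 in the pool, 6.99 to 8.24 in bystanders and 4.14 to 5.33 in responders. Xcr1 made up nearly all of this sum, with means of 0.455, 4.06, 7.31 and 4.47 CPM in that order, and Zbtb46 had group means of at most 0.215 CPM. Col1a1 and the other 4 fibroblast markers summed to 7.02 to 30.8 CPM in untreated libraries, 3.04 to 105 in the pool, 1.94 to 76.8 in bystanders and 8.59 to 30.2 in responders. In 6 of the 16 libraries, 9 low neural markers summed to 2.23 to 4.57 CPM, against 0.242 to 0.597 in the other 10. Those 6 were pool libraries 3 and 4, bystander libraries 3 and 4, responder library 1 and untreated library 1. Below, libraries with and without neural transcripts are those with this sum above and below 1 CPM. The 10 were not free of such reads, with 4 to 12 each. The part of these transcripts in the results below was not tested beyond fitting the 10 and the 6 libraries alone.

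Measured per kilobase of exon, Spi1 was the most abundant of the set in untreated cells, at 102 CPM per kb. Cebpb followed at 50.9 and Klf2 at 22.0, then Cebpa at 7.49, Cebpd at 4.21, Runx1 at 3.91, Cebpe at 1.18, Klf4 at 1.07 and Maf at 0.53. In responders the order of these length-scaled levels was different. Cebpb stood first at 233 CPM per kb and Spi1 next at 176, Cebpd had reached 26.2 and Maf 3.71, and Cebpa was at 1.54. Bystanders kept Spi1 first, at 89.6 CPM per kb, followed by Klf2 at 50.7 and Cebpb at 43.5. Lengths are those of all annotated exons of a gene in GENCODE M21, so these comparisons between genes depend on which transcripts the cells make. They also depend on the annotation. The lengths used for Maf (8241 bases) and Cebpd (3746 bases) exceed the whole spans of these genes in RefSeq. The length for Runx1 (12025 bases) is taken over 7 annotated transcripts. In untreated cells the order of Cebpa, Cebpd and Runx1, and that of Cebpe, Klf4 and Maf, is therefore not settled. The levels per kb of Cebpd and Maf in responders are uncertain in the same way.

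Between the gates, Spi1, Cebpb, Cebpd and Maf were higher in responders, and Klf2, Klf4 and Runx1 were higher in bystanders. That is 4 of 9 members higher and 3 lower in responders at an adjusted p under 0.05 by edgeR's quasi-likelihood test, beside 34.7% of all tested genes higher and 35.3% lower. Cebpa and Cebpe did not pass the test. The median size of change was 0.97 on the log2 scale over the 9 members and 0.30 over all 12589 genes. In 7 members the responder and bystander libraries did not overlap, which was also true of 63.9% of all genes.

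The LPS pool held more Spi1, Cebpb, Cebpd and Maf transcript than untreated cells and less Cebpa and Klf2, so 4 members were higher and 2 lower, beside 34.1% and 37.8% of all genes. Responders against untreated cells gave 5 higher (the same 4 and Runx1) and 2 lower (Cebpa and Klf4), beside 36.5% and 38.5%. Bystanders against untreated cells also gave 5 higher, but these were Cebpd, Maf, Klf2, Klf4 and Runx1, and 2 lower, Spi1 and Cebpa, beside 34.1% and 32.9%. Fewest members differed between responders and the pool: Spi1 and Cebpb were higher and Cebpa was lower, 2 and 1 of 9, beside 16% and 9.49% of all genes. Bystanders held more Klf2, Klf4 and Runx1 than the pool and less Spi1, Cebpa, Cebpb, Cebpd and Maf, 3 and 5 of 9, beside 34.1% and 32.9%. Comparisons with untreated cells share the untreated libraries and those with the pool share the pool libraries, so they are not independent of each other. Gated cells were collected before the pool and the untreated cells. For every gene, collection order therefore cannot be told apart from gating when a gate is compared with the pool. The same holds for collection order, gating and LPS when a gate is compared with untreated cells.

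The count of calls in each direction depended on how libraries were scaled. With library totals alone in place of TMM, the median of all genes between responders and bystanders moved from -0.01 to -0.20 on the log2 scale, and the share of calls that were higher from 49.5% to 27.8%. For the pool against untreated cells the median moved to -0.36 and the share from 47.4% to 21.6%, for responders to -0.41 and from 48.7% to 21.7%, and for bystanders to -0.18 and from 50.9% to 27.5%. Against the pool, the share moved from 62.7% to 30.6% for responders and from 50.9% to 68.4% for bystanders. The members' changes between the gates kept their direction under this scaling, but 3 were then higher and 4 lower in responders, since Maf no longer passed and Cebpa did.

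**Figure D1:**
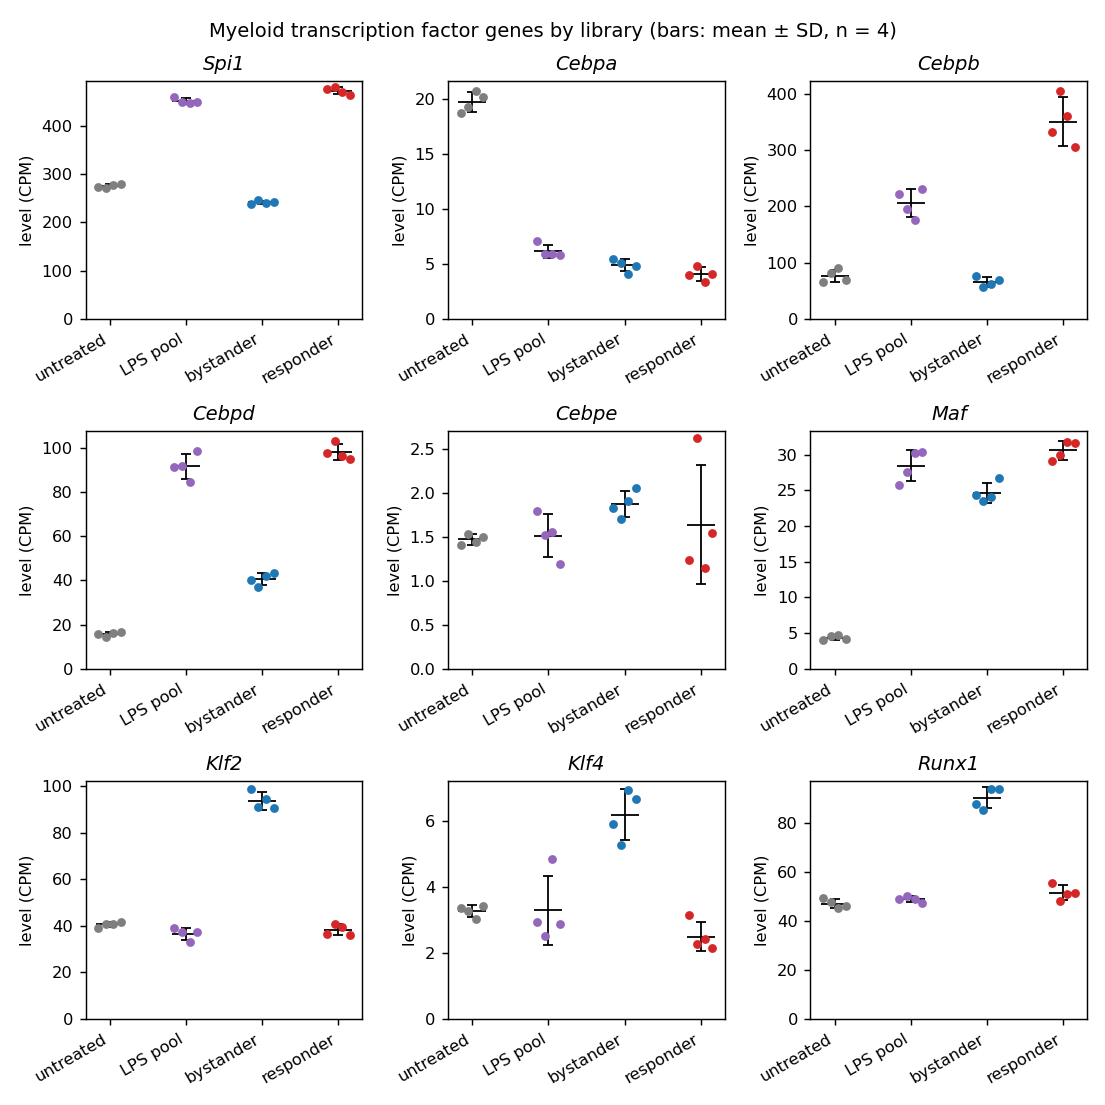
Level of each of the 9 genes in CPM (y axis, from 0) in every library of the 4 groups (x axis); points are libraries, and bars are the mean ± SD of 4. Klf2, Klf4 and Runx1 stand highest in bystanders, Cebpa stands highest in untreated cells, and the responder and pool points of Spi1 (447.3 to 481.4 CPM) lie above all its bystander and untreated points.

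Spi1 (Entrez 20375, chromosome 2, 91082374 to 91115759 in GRCm38.p6, plus strand), the gene for PU.1, moved in opposite directions in the sorted groups. Untreated libraries 1 to 4 held 274.4, 271.1, 278.1 and 279.4 CPM and bystander libraries 237.6, 245.9, 239.9 and 242.2 CPM. Pool libraries held 461.4, 451.0, 447.3 and 450.2 CPM and responder libraries 476.9, 481.4, 470.7 and 465.2 CPM. The 4 groups did not overlap: bystanders were lowest, then untreated cells, the pool and responders. Responders exceeded bystanders 1.96-fold (log2 0.97 ± 0.0205 SE, adjusted p = 2.69e-46 by edgeR). Against untreated cells, Spi1 was 1.72-fold higher in responders (adjusted p = 6.53e-42) and 1.14-fold lower in bystanders (log2 -0.19 ± 0.021 SE, adjusted p = 3.22e-12 by edgeR). Responders were also 1.05-fold above the pool (adjusted p = 0.00984 by edgeR). That difference did not pass without responder library 2 (adjusted p = 0.0501), in a fit of only the groups compared (0.0828) or in the 10 or the 6 libraries (0.104 and 0.184), and with library totals alone it was log2 0.0099 (adjusted p = 0.762). Its replicates varied by 1.43%, close to the 1.23% that counting alone gives. The summed macrophage markers were also highest in responders, but unlike Spi1 their sum was above untreated cells in bystanders. That sum mixed unlike changes. From untreated cells to responders, Cd14 (167 to 773 CPM), Fcgr1 (55.6 to 561), Adgre1 (103 to 292) and Itgam (295 to 505) rose. Csf1r (894 to 550 CPM) and Mertk (1.68 to 0.689) fell, and Cd68, Lyz2 and Tyrobp changed little. The part of such shifts in the change of Spi1 was not tested. In sorted bulk RNA, fewer cells that hold a transcript and less of it per cell cannot be told apart.

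Cebpa (Entrez 12606, chromosome 7, 35119293 to 35121928, plus strand) fell in every LPS-treated group. Untreated libraries held 18.76, 19.26, 20.78 and 20.16 CPM. Bystander libraries held 5.439, 5.092, 4.113 and 4.837 CPM and responder libraries 3.948, 4.84, 3.385 and 4.107 CPM. The pool libraries, at 7.047, 5.886, 5.897 and 5.771 CPM, were all above both sorted groups and far below untreated cells. Relative to untreated cells, Cebpa was 4.84-fold lower in responders (log2 -2.28 ± 0.0949 SE, adjusted p = 6.64e-31 by edgeR) and 4.1-fold lower in bystanders (log2 -2.03 ± 0.0922 SE, adjusted p = 8.01e-29). The 2 sorted groups overlapped, and their difference of log2 -0.24 ± 0.117 SE had an adjusted p of 0.062 by edgeR. That p was 0.0208 without bystander library 3, 0.0182 without responder library 2, 0.0423 in the 10 libraries without neural transcripts and 0.000845 with library totals alone.

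Cebpa was below the pool in both sorted groups. It was 1.51-fold lower in responders than in the pool (log2 -0.60 ± 0.116 SE, adjusted p = 4.88e-05 by edgeR) and 1.28-fold lower in bystanders (log2 -0.36 ± 0.112 SE, adjusted p = 0.00451). Neither passed in the 6 libraries with neural transcripts (adjusted p = 0.119 and 0.0524), and the second did not pass in the 10 libraries (adjusted p = 0.112) or with library totals alone (adjusted p = 0.0763). The gated cells were collected first and the pool later, so collection order and gating cannot be told apart here. The values rest on 68 to 124 reads per LPS-treated library.

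Cebpb (Entrez 12608, chromosome 2, 167688915 to 167690432, plus strand, an intronless gene) showed the widest gap between the gates of the 9. Bystander libraries held 75.35, 56.37, 61.93 and 68.33 CPM and responder libraries 331.8, 405.8, 361.2 and 305.7 CPM. Untreated libraries, at 65.7, 81.8, 89.45 and 69.09 CPM, overlapped with bystanders, and pool libraries, at 222.7, 196.0, 175.6 and 230.9 CPM, lay between. Responders exceeded bystanders 5.36-fold (log2 2.42 ± 0.129 SE, adjusted p = 7.38e-10 by edgeR), a change larger than that of 98.4% of all genes. Against untreated cells Cebpb was 4.61-fold higher in responders (adjusted p = 1.21e-09 by edgeR) and 2.7-fold higher in the pool (adjusted p = 2.91e-07). In bystanders the difference from untreated cells was log2 -0.22 ± 0.148 SE (adjusted p = 0.216 by edgeR; 0.0227 with library totals alone).

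Replicates of Cebpb spread widely for a gene of its level. Its coefficient of variation within groups was 12.9%, where counting gives 2.12%, and exceeded that of 99.6% of the 4777 genes with at least 40 CPM, whose median was 3.19%. The spread was present in all 4 groups, with SDs of 11.1 CPM in untreated cells, 25.3 in the pool, 8.19 in bystanders and 42.9 in responders. Of the libraries with neural transcripts, pool libraries 3 and 4 had the lowest and the highest Cebpb level of their group, and untreated library 1 had the lowest. Bystander libraries 3 and 4 and responder library 1 were neither lowest nor highest in theirs. The part of these transcripts in the spread was not tested. On the opposite strand 312 exon bases are shared with Tmem189, which was near level, at 307.4 ± 5.27 CPM in responders and 301.4 ± 4.08 in bystanders. No source used here says whether reads were assigned by strand.

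Cebpd (Entrez 12609, chromosome 16, 15887286 to 15889545, plus strand) rose in both sorted groups, by different amounts. Untreated libraries held 15.77, 14.35, 16.31 and 16.61 CPM and bystander libraries 40.31, 36.85, 42.03 and 43.16 CPM. Pool libraries held 91.32, 91.9, 84.48 and 98.67 CPM, overlapping with responders at 97.84, 103.1, 96.22 and 95.1 CPM. Thus Cebpd was 2.59-fold higher in bystanders than in untreated cells (log2 1.37 ± 0.0557 SE, adjusted p = 1.39e-27 by edgeR), and 6.22-fold higher in responders (log2 2.64 ± 0.0492 SE, adjusted p = 7.53e-43). Responders exceeded bystanders 2.4-fold (adjusted p = 2.93e-31 by edgeR). A stretch of 562 exon bases is shared with Spidr on the opposite strand, which stood at 44.75 ± 1.93 CPM in responders and 40.41 ± 1.56 in bystanders.

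Cebpe (Entrez 110794, chromosome 14, 54710363 to 54712174, minus strand) was low, at 17 to 53 reads per library. Its group means were 1.469 CPM in untreated cells, 1.514 in the pool, 1.87 in bystanders and 1.635 in responders, and its adjusted p by edgeR was 0.157 or more in the 6 comparisons. Responder library 2 held 2.617 CPM and the other responder libraries 1.145 to 1.54. Without that library, Cebpe was lower in responders than in bystanders by log2 -0.51 ± 0.235 SE (adjusted p = 0.0488 by edgeR).

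The balance within the C/EBP family was read as a ratio of raw counts inside each library, which no scaling between libraries can alter. Cebpb reads outnumbered Cebpa reads by 3.43 to 4.3 times in untreated libraries, 11.1 to 15.1 in bystanders, 29.8 to 40 in the pool and 74.4 to 107 in responders. Cebpd reads stood at 0.745 to 0.841 of Cebpa reads in untreated libraries and at 7.24 to 10.2 times in bystanders, 13 to 17.1 in the pool and 21.3 to 28.4 in responders. Neither ratio overlapped between any of the groups. In bystanders the first ratio was above that of untreated cells although Cebpb itself did not pass the test there, since Cebpa was lower. Cebpa reads per Spi1 read ran from 0.0684 to 0.0747 in untreated libraries and from 0.00719 to 0.0101 in responders. The pool, at 0.0128 to 0.0153, and bystanders, at 0.0171 to 0.0229, lay between and did not overlap with each other. These ratios are descriptions, with no test.

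**Figure D2:**
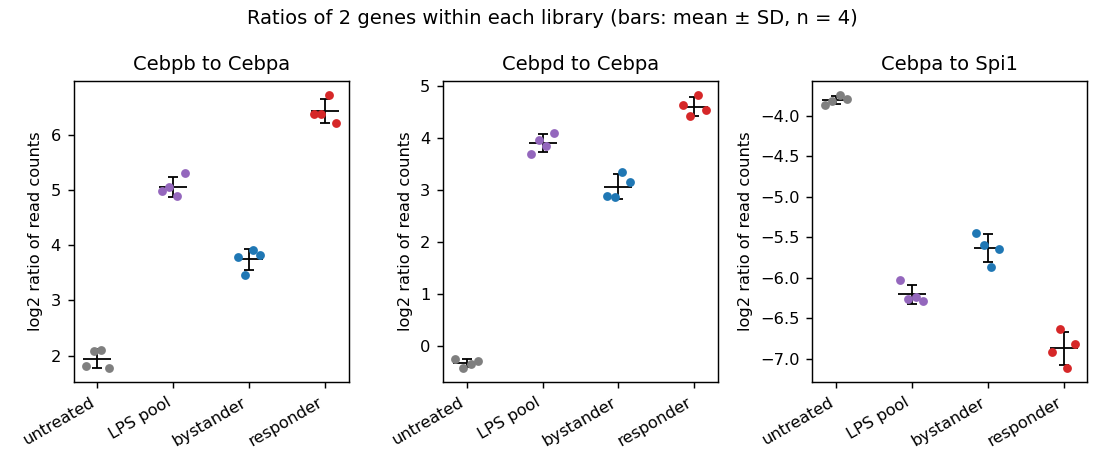
Log2 ratio of the read counts of a pair of genes within each library (y axis) in the 4 groups (x axis); points are libraries, and bars are the mean ± SD of 4. The Cebpb to Cebpa ratio climbs from a mean of 1.94 in untreated cells to 3.75 in bystanders, 5.07 in the pool and 6.43 in responders, while Cebpa to Spi1 is highest in untreated cells and lowest in responders.

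Maf (Entrez 17132, chromosome 8, 115703253 to 115706894, minus strand), the c-Maf gene, rose strongly in all LPS-treated groups and differed little between the gates. Untreated libraries held 4.032, 4.589, 4.681 and 4.175 CPM. Bystander libraries held 24.39, 23.46, 24.02 and 26.73 CPM and responder libraries 29.06, 29.93, 31.71 and 31.64 CPM, with the pool at 25.76, 27.53, 30.23 and 30.33 CPM. The untreated libraries were far below all others, and the pool overlapped with both sorted groups. Maf was 7.01-fold higher in responders than in untreated cells (log2 2.81 ± 0.0756 SE, adjusted p = 5.03e-41 by edgeR) and 5.67-fold higher in bystanders (log2 2.50 ± 0.0781 SE, adjusted p = 2.54e-37). Between the gates it was 1.24-fold higher in responders (log2 0.31 ± 0.0561 SE, adjusted p = 2.41e-06 by edgeR), which did not pass with library totals alone (adjusted p = 0.0584) or in the 6 libraries with neural transcripts (adjusted p = 0.107). Bystanders were 1.15-fold below the pool with overlapping libraries (adjusted p = 0.00228 by edgeR), which did not pass in the 10 libraries (adjusted p = 0.0795) or with library totals alone (adjusted p = 0.34).

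Klf2, Klf4 and Runx1 had their highest level in bystanders. The table of RefSeq promoters for GRCm38.p6 held windows for 5 of the 9 members (Cebpa, Cebpb, Klf2, Klf4 and Runx1, the last with 2). The 250 bases before the annotated start are printed for the 3 genes that were high in bystanders, since these moved together, with capitals for CCCCGCCC (or GGGCGGGG on the other strand), a GC-rich word bound by KLF and SP factors, and for CCAAT (or ATTGG). Klf2 is at chr8:72318812-72319061 on the plus strand and Klf4 at chr4:55532476-55532725 on the minus strand. The Runx1 windows, also on the minus strand, are at chr16:92826075-92826324 for the distal start and chr16:92697330-92697579 for the proximal start.
Klf2: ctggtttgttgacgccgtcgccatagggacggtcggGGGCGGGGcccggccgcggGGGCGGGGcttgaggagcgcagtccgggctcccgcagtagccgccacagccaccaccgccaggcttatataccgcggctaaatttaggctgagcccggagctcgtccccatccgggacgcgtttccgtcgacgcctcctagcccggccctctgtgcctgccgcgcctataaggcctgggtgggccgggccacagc
Klf4: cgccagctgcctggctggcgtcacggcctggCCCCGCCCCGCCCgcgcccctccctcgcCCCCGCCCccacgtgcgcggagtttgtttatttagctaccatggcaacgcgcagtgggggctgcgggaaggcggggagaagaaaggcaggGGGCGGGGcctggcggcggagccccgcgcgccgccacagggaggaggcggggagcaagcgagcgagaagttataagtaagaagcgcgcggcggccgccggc
Runx1 distal: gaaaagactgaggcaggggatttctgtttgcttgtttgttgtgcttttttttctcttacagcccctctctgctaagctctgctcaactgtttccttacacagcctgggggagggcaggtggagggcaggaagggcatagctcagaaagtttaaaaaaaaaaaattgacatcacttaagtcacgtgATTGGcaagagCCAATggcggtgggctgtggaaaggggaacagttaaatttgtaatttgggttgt
Runx1 proximal: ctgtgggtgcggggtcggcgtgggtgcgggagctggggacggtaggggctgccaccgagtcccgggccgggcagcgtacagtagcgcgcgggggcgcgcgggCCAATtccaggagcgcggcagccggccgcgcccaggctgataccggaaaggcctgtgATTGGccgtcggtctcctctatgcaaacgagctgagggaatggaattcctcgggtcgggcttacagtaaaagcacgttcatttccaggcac

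CCCCGCCC occurs in the Klf2 window 214 and 195 bases before the start and in the Klf4 window 219, 214, 191 and 101 bases before it, the first pair overlapping. Of 32851 promoter windows of 300 bases (250 before and 50 after the start), 17.6% hold this word. CCAAT occurs in the distal Runx1 window 65 and 54 bases before the start and in the proximal one 148 and 91 bases before it, and 37.4% of all windows hold it. The distal Runx1 stretch has 2 CG dinucleotides and 45.6% G and C, and the proximal one 27 and 67.6%. Klf2 has 29 and 71.2%, Klf4 32 and 74.0%, Cebpa 22 and 66.4%, and Cebpb 41 and 81.6%, beside a median of 6 and 52.4% over all promoters. On either strand, none of the 6 windows held the C/EBP words TTGCGCAA, TTGCGAAA or TTGCACAA (in 0.183%, 0.174% and 1.01% of all windows). The same was true of the PU.1 word GAGGAAGT (3.2%), the KLF word CCACACCC (3.56%), the AP-1 site TGANTCA (7.81%), the CRE TGACGTCA (1.79%), the GAS TTCNNNGAA (8.3%), an ISRE-like word (3.44%) and the NF-kappaB consensus (8.46%). This says only that these letters are not in these windows.

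Klf2 (Entrez 16598, chromosome 8, 72319062 to 72321654, plus strand), whose product limits inflammatory gene expression in myeloid cells, was high in bystanders alone. Bystander libraries held 98.82, 91.16, 94.3 and 90.47 CPM and responder libraries 36.62, 40.94, 39.53 and 36.12 CPM. Untreated libraries, at 38.92, 40.99, 40.89 and 41.79 CPM, and pool libraries, at 39.05, 37.45, 33.02 and 37.3 CPM, overlapped with responders. Klf2 was 2.3-fold higher in bystanders than in untreated cells (log2 1.20 ± 0.0405 SE, adjusted p = 1.59e-35 by edgeR) and 2.45-fold lower in responders than in bystanders (log2 -1.29 ± 0.0413 SE, adjusted p = 1.2e-36). Responders differed from untreated cells by log2 -0.09 ± 0.0456 SE (adjusted p = 0.0784 by edgeR; 0.028 without responder library 2 and 1.79e-14 with library totals alone). The pool was 1.11-fold below untreated cells with overlapping libraries (adjusted p = 0.00529 by edgeR), which did not pass without pool library 3 (adjusted p = 0.0786) or in the 10 libraries (adjusted p = 0.083). In the 6 libraries with neural transcripts, with 1 untreated library, the difference was log2 -0.15.

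Klf4 (Entrez 16600, chromosome 4, 55527137 to 55532475, minus strand) had a like pattern at a lower level, with 41 to 179 reads per library. Bystander libraries held 5.897, 5.273, 6.946 and 6.682 CPM and responder libraries 3.139, 2.272, 2.439 and 2.147 CPM. Untreated libraries held 3.353, 3.284, 3.035 and 3.423 CPM and pool libraries 2.946, 2.516, 4.842 and 2.886 CPM. The bystander libraries were above all the others. Responders were 2.5-fold below bystanders (log2 -1.32 ± 0.149 SE, adjusted p = 7.55e-12 by edgeR), and bystanders 1.91-fold above untreated cells (log2 0.93 ± 0.141 SE, adjusted p = 4.24e-08). Responders were 1.31-fold below untreated cells with overlapping libraries (log2 -0.39 ± 0.161 SE, adjusted p = 0.0254 by edgeR). That call was lost without responder library 2, 3 or 4 (adjusted p = 0.0736, 0.0525 and 0.0977), without untreated library 1 or 4 (0.0508 and 0.0601) and with DESeq2 (0.0527). In the 6 libraries with neural transcripts, with 1 library in each of these groups, the difference was log2 -0.09. Klf2 reads per Klf4 read, at 11.6 to 13.5 in untreated libraries, 6.82 to 14.9 in the pool, 13.5 to 17.3 in bystanders and 11.7 to 18.0 in responders, overlapped between the LPS-treated groups.

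Runx1 (Entrez 12394, chromosome 16, 92601466 to 92826074, minus strand) was again highest in bystanders, whose libraries held 87.66, 85.4, 93.87 and 93.75 CPM. Responder libraries held 55.41, 48.05, 50.93 and 51.56 CPM. Untreated libraries, at 49.2, 47.65, 45.21 and 45.96 CPM, and pool libraries, at 48.92, 50.08, 49.1 and 47.16 CPM, overlapped with responders. Runx1 was 1.92-fold higher in bystanders than in untreated cells (log2 0.94 ± 0.0382 SE, adjusted p = 2.47e-31 by edgeR) and 1.76-fold lower in responders than in bystanders (log2 -0.81 ± 0.0381 SE, adjusted p = 4.25e-28). Responders were 1.1-fold above untreated cells (log2 0.13 ± 0.0412 SE, adjusted p = 0.00355 by edgeR). With library totals alone this turned to log2 -0.25 (adjusted p = 1.95e-07), beside a median of -0.41 over all genes under that scaling. In the 6 libraries with neural transcripts, with 1 library in each of these groups, the difference was log2 0.18. Counts do not separate transcripts from the distal and proximal starts.

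**Figure D3:**
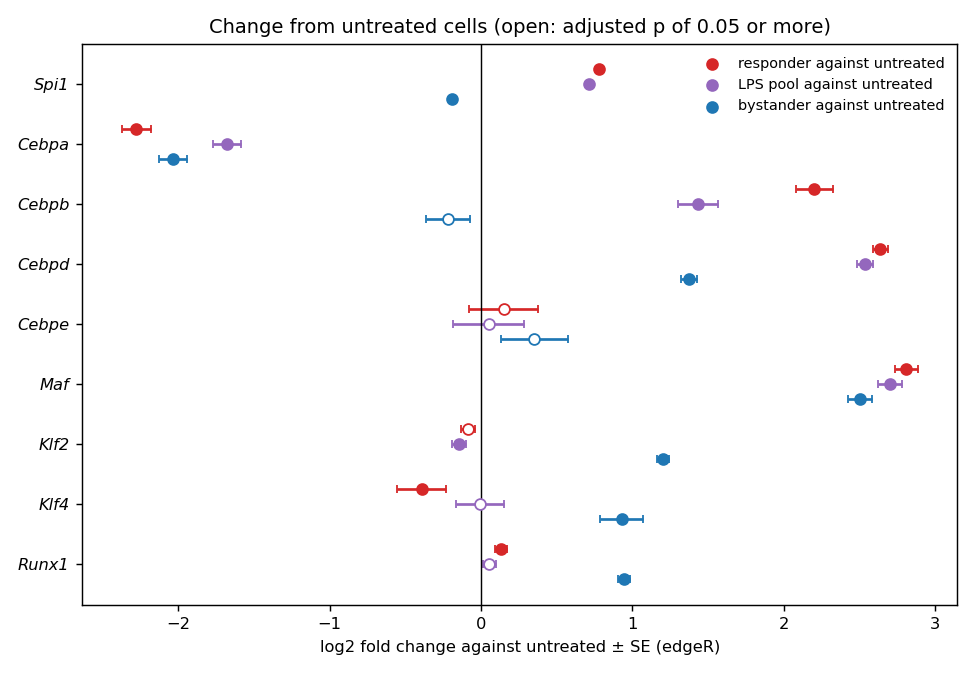
Log2 fold change against untreated cells ± SE (x axis) of each gene (y axis) in responders, the LPS pool and bystanders, from edgeR; open points have an adjusted p of 0.05 or more. Responders and the pool lie near each other for Spi1, Cebpd, Klf2 and Runx1, and bystanders lie apart from them, to the right for Klf2, Klf4 and Runx1 and to the left for Spi1, Cebpb and Cebpd.

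The level of the pool was placed on the way from the bystander mean, at 0%, to the responder mean, at 100%, for the 7 members that differed between the gates. Spi1 stood at 90.9% ± 2.65 (SD over 4 pool libraries), Cebpd at 88.8% ± 10.1, Klf2 at 103% ± 4.66 and Runx1 at 107% ± 3.15. These 4 genes thus had a pool level near that of responders or past it. Klf4 at 78.4% ± 28.3 and Maf at 64.3% ± 37.4 were placed loosely, their pool libraries being spread widely relative to the gap. Cebpb stood apart at 49.3% ± 8.86, and at 68.3% when placed on the log2 scale. The labels do not give the share of each gate in the pool, nor that of cells outside both.

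The relatives of the members were read from lists of the same families and of proteins that regulate them, drawn up from general knowledge. Among 6 tested MAF relatives (of 7 listed), 2 were higher and 4 lower in responders than in bystanders, beside 34.7% and 35.3% of all genes. Those lower included Mafk, a small MAF protein gene, at 42.07 ± 2.5 against 81.06 ± 1.31 CPM, and Bach1, which encodes a partner and repressor at MAF sites, at 28.09 ± 1.45 against 48.12 ± 2.06 CPM. The small MAF genes Mafg and Maff were higher in responders, 2.08-fold (adjusted p = 3.61e-32 by edgeR) and 2.27-fold (adjusted p = 8.95e-17). The median of the 6 was log2 -0.86, beside -0.01 over all genes.

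Of 13 tested ETS relatives of PU.1 (of 16 listed), 4 were higher and 7 lower in responders than in bystanders, with a median of log2 -0.12. Ets2 was 2.38-fold higher (357.6 ± 3.61 against 149.9 ± 5.75 CPM, adjusted p = 2.4e-49 by edgeR) and Erf, an ETS repressor gene, 2.25-fold higher (adjusted p = 3.5e-34). Elf1 was 2.21-fold lower (60.54 ± 1.41 against 133.6 ± 3.33 CPM, adjusted p = 2.08e-40 by edgeR) and Etv5 2.77-fold lower (adjusted p = 2.5e-32). Over all tested genes 34.7% were higher and 35.3% lower.

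Among 8 tested relatives and regulators of C/EBP factors (of 9 listed), 4 were higher and 3 lower in responders than in bystanders. Over all genes 34.7% were higher and 35.3% lower. Ddit3, the gene of the C/EBP family member CHOP, was 1.53-fold higher (adjusted p = 4.48e-21 by edgeR). Cop1, a ubiquitin ligase gene whose product acts with Tribbles proteins on C/EBP alpha, was 1.45-fold higher (66.11 ± 2.41 against 45.47 ± 0.276 CPM, adjusted p = 7.03e-20 by edgeR). Against untreated cells, 7 of the 8 were higher in responders and 1 lower, beside 36.5% and 38.5% of all genes. In bystanders 3 were higher and 3 lower, beside 34.1% and 32.9%. Trib3 was one of those higher in both: 20.8 ± 1.87 CPM in untreated cells, 30.34 ± 2.0 in bystanders and 30.99 ± 0.941 in responders.

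Of 9 tested KLF relatives (of 13 listed), 3 were higher and 3 lower in responders than in bystanders, near the 34.7% and 35.3% of all genes. Klf16 was 2.61-fold higher, at 47.5 ± 1.61 against 18.07 ± 1.51 CPM (adjusted p = 9.7e-34 by edgeR), the reverse of Klf2 and Klf4. Klf6, at 304.3 ± 4.67 CPM in bystanders and 295.5 ± 9.87 in responders, did not pass the test between the gates and was above its untreated level of 104.1 ± 3.9 CPM in both. Of 5 tested RUNX relatives and partners (of 7 listed), 1 was higher and 2 lower, beside the same shares of all genes. Cbfb, the gene of the partner subunit that RUNX proteins need for stable DNA binding, was 1.27-fold lower in responders than in bystanders and 1.27-fold lower in bystanders than in untreated cells (adjusted p = 5.13e-15 and 4.72e-16 by edgeR), so in bystanders it was below untreated cells while Runx1 was above. Tle3, a corepressor gene, was 2.67-fold higher in bystanders than in untreated cells (adjusted p = 3.85e-41 by edgeR).

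In the list of 31 other haematopoietic transcription factors, 28 were tested, with 11 higher and 11 lower in responders than in bystanders. These counts were near the 34.7% and 35.3% of all genes. Hhex, a homeobox gene of early blood cells, was high in bystanders alone, as Klf2 was: 122.6 ± 2.17 CPM there, 30.22 ± 1.47 in responders and 31.98 ± 0.889 in untreated cells. Irf8, a partner of PU.1 in the monocyte lineage, rose in both gates and further in bystanders (263.3 ± 7.37 CPM against 155.2 ± 1.54 in responders and 59.91 ± 2.75 in untreated cells). Id3, an inhibitor of basic helix-loop-helix factors, was 3.74-fold higher in responders than in bystanders (adjusted p = 7.27e-40 by edgeR). Lyl1 fell in both gates, from 167.1 ± 2.55 CPM in untreated cells to 83.76 ± 4.16 in bystanders and 45.31 ± 2.39 in responders.

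Genes known as targets of the members were described in the same way. All 19 listed PU.1 targets were tested, and 15 were higher and 4 lower in responders than in bystanders, beside 34.7% and 35.3% of all genes. The median was log2 0.54 and the range -2.03 to 2.45, and Csf1r (-0.34) and Cd68 (-0.06) were among the 4 lower. Msr1, a scavenger receptor gene, stood at 69.54 ± 1.58 CPM in untreated cells, 141.2 ± 3.17 in bystanders and 512.5 ± 6.68 in responders. Adgre1, a receptor gene that marks mouse macrophages, was 2.58-fold higher in responders than in bystanders (adjusted p = 2.61e-50 by edgeR). Against untreated cells 15 of these targets were higher in bystanders and 3 lower, beside 34.1% and 32.9% of all genes, although Spi1 itself was lower there. Fcgr1, an Fc receptor gene, was 7.13-fold higher in bystanders than in untreated cells (adjusted p = 5.3e-66 by edgeR).

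Of 15 listed C/EBP targets only 8 passed the low-count filter, and a gene that passes through its high group alone has to differ, so the count is a description. In responders 6 of the 8 were higher than in bystanders and 1 lower, beside 34.7% and 35.3% of all genes, with a median of log2 3.57. Csf3r, the receptor gene for granulocyte colony-stimulating factor, also listed as a PU.1 target, was 5.11-fold higher (15.74 ± 0.854 against 3.026 ± 0.628 CPM, adjusted p = 1.47e-29 by edgeR). Hp, the haptoglobin gene, stood at 6.698 ± 0.916 CPM in responders and 0.7169 ± 0.0495 in bystanders. Il6ra went the other way, at 9.481 ± 0.314 CPM in responders against 25.44 ± 0.846 in bystanders and 27.4 ± 0.789 in untreated cells, and was 2.68-fold lower in responders than in bystanders (adjusted p = 5.02e-29 by edgeR).

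Among 8 tested MAF targets (of 10 listed), 2 were higher and 6 lower in responders than in bystanders, beside 34.7% and 35.3% of all genes. Their median was log2 -1.35. As with the C/EBP targets, a gene that passes the filter through its high group alone has to differ, so this is a description. Some levels were low, such as Il10 at 0.1013 ± 0.0841 CPM in untreated cells and C1qa at 1.307 ± 0.399 in responders. The 3 complement genes C1qa, C1qb and C1qc were lower: C1qb stood at 4.977 ± 0.691 CPM in responders and 10.72 ± 0.763 in bystanders. The 2 that were higher in responders were Il10, at 3.806 ± 0.204 against 0.9019 ± 0.38 CPM, and the mannose receptor gene Mrc1, at 4.244 ± 0.542 against 2.802 ± 0.307 CPM. Of 7 tested KLF2 and KLF4 targets (of 8 listed), 3 were higher and 1 lower, beside the same shares of all genes. S1pr1, a sphingosine phosphate receptor gene known as a KLF2 target in lymphocytes, was the 1 lower. It stood at 1.884 ± 0.138 CPM in responders and 3.697 ± 0.603 in bystanders, 1.93-fold lower in responders (adjusted p = 2.73e-07 by edgeR). Between the gates it thus moved in the direction of Klf2. The 3 higher in responders, Vegfa (1.71-fold), Itgb7 (1.33-fold) and Cdkn1a (1.19-fold), moved the other way. Against untreated cells (9.051 ± 0.899 CPM) S1pr1 was 2.48-fold lower in bystanders (adjusted p = 1.56e-14 by edgeR), while Klf2 was higher there.

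**Figure D4:**
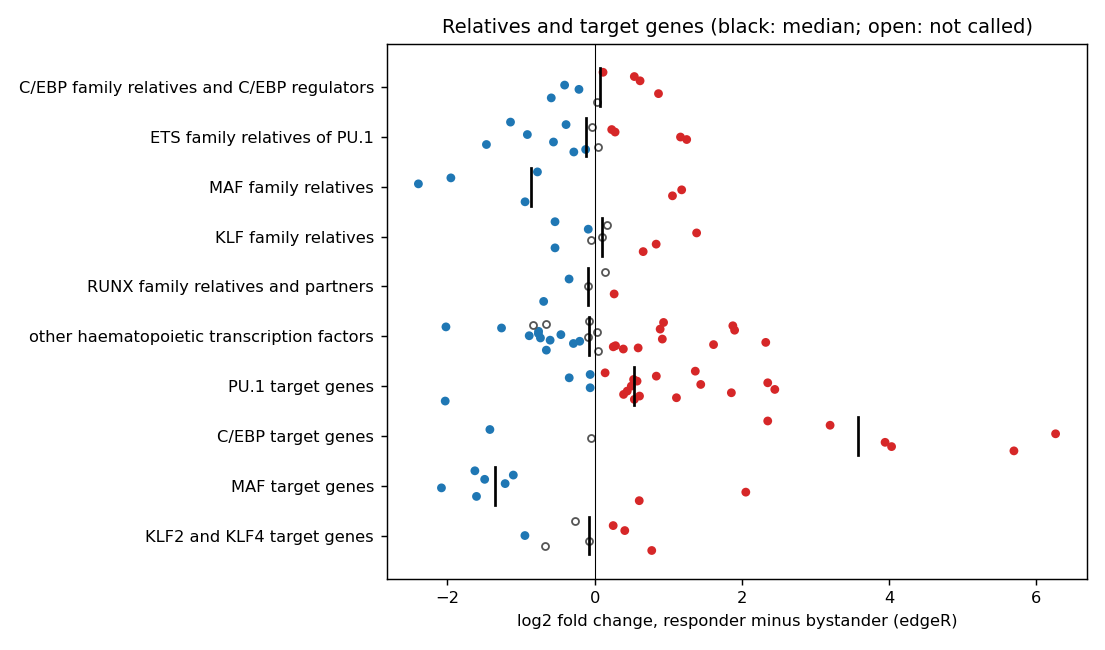
Log2 fold change of responders against bystanders from edgeR (x axis) for each tested gene of 10 lists of relatives and targets of the 9 factors (y axis); points are genes, red higher, blue lower, open not past the test, and black bars are medians. Points of the PU.1 and C/EBP targets lie mostly to the right, with medians of 0.54 and 3.57, and those of the MAF relatives and MAF targets mostly to the left, with medians of -0.86 and -1.35. The medians are descriptions, with no test.

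The genes most like each member were found by the distance between their 4 group means of log2 CPM, each centred on its own mean, among 9604 genes of at least 5 CPM outside the set. The likeness is over 4 groups of the same 16 libraries and is a description. Nearest to Spi1 was Ifrd1 (distance 0.0419), with 162 CPM in bystanders and 330.0 in responders. Nearest to Runx1 was Ikzf1, the Ikaros gene (0.034), with 139 CPM in bystanders and 82.1 in responders, and nearest to Klf2 was Taf7 (0.0508). Cebpa was nearest to Lpar5, a lysophosphatidic acid receptor gene (0.101), Cebpd to Tm4sf1 (0.111) and then Clu, the clusterin gene (0.154), Maf to Adam33 (0.089) and Klf4 to Pkib (0.145). No gene came as close to Cebpb: Igsf6 was nearest at 0.38, with 46.5 CPM in bystanders, 176 in the pool and 208 in responders. Within the set, the closest pair was Klf2 and Klf4 (0.372), and Runx1 was nearest to Klf2 (0.39). Cebpd and Maf were 0.886 apart.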

How the data were processed

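RNA was sequenced from 16 samples, 4 groups of 4 replicates. The authors deposited raw counts of reads per gene, in 1 table. The tools were featureCounts 2.1.1, HISAT2 2.2.2, fastp 1.1.0 and cutadapt 3.7 on GRCm38 (mm10), per the submitters' processing notes. Not given in the sources used here are strandedness, the gene annotation and the treatment of multiply mapped reads, so counts of genes with overlapping antisense neighbours are uncertain. Of 27179 Entrez identifiers, 25275 were found in RefSeq's GRCm38.p6 gene table. The other 1904, with 0.399% of counts, stayed in the fit. The table had 3 empty columns and 0 from other samples.

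The fit used edgeR 4.0.16 (R 4.3.3): filterByExpr, TMM factors, a robust quasi-likelihood model of all 16 libraries with 1 mean per group, two-sided F tests and Benjamini-Hochberg adjustment over all 12589 genes tested. An adjusted p under 0.05 was called. Every adjusted p is from this fit unless DESeq2 or another setting is named. The median biological coefficient of variation was 0.0357. The SE is the size of the log2 fold change divided by the square root of F. For responders against bystanders, counts of 12238 genes were simulated from the bystander means. The fit recovered 81% of 100 genes changed by 0.25 (log2) and 100% of 100 changed by 1. Of its calls 7.65% were false, a share above the threshold of 0.05. Only these genes were changed, whereas 34.7% of genes were called higher and 35.3% lower in the data, so the simulation does not test the fit or its scaling in that setting. Replicate pairs differed beyond counting noise.

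The members, lists, comparisons and most alternatives were chosen with earlier results of these data known. All members are named. From each list, up to 4 genes with the smallest p for responders against bystanders and up to 4 for the pool against untreated cells, with a mean of at least 1 CPM, could be named, though some such genes are not reported here. The genes most like a member were the 2 nearest. Alternatives were RLE factors, library totals, no filter, DESeq2 1.42.0, fits of only the groups compared, a replicate block, leaving out each library and, added after seeing the data, the 10 and 6 libraries without and with neural transcripts. Promoters are from RefSeq (GRCm38.p6) and exon lengths from GENCODE M21. Protein sequences were not analysed here.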

Additional observations from a re-analysis of the deposited data

Results flagged for a closer look

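The Cebpa level of pool library 1, 7.05 CPM, lay apart from the other 3 pool libraries (5.771 to 5.897 CPM), with a gap to its neighbour above Dixon's 95% critical value for 4 samples. It was the 1 such library among 36 groups of 4 checked over the 9 genes, and chance alone would set apart about 1 group in 20. Spi1 changed from untreated cells by log2 0.78 in responders and -0.19 in bystanders, and Klf4 by -0.39 in responders and 0.93 in bystanders. The difference between these changes is the comparison of responders with bystanders, which both genes passed (adjusted p = 2.69e-46 and 7.55e-12 by edgeR).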

How the results depend on the processing

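Of the members' fold changes under all alternatives, 803 kept their direction and side of the threshold, 14 newly passed, 25 no longer passed and 22 turned, and the cause was not tested. With library totals alone, genes called higher and lower were 2580 and 6695 for responders against bystanders, 2216 and 8027 for the pool against untreated cells, 2286 and 8238 for responders and 2491 and 6576 for bystanders against untreated cells, 1073 and 2438 for responders against the pool, and 2755 lower for bystanders against the pool. Members lower were then 4 for responders against untreated cells and 3 for bystanders against the pool, and for responders against the pool 1 was higher and 2 lower. Against untreated cells, Cebpe turned to -0.28 in the pool and -0.23 in responders, and Runx1 to -0.27 and -0.25. Klf4 in the pool against untreated cells, near 0, turned to 0.021 with RLE factors, 0.024 with DESeq2 and 0.023 in a fit of only the groups compared. DESeq2 left 1 member lower in responders against untreated cells, and the fit of only the groups compared 1 higher in responders against the pool. Leaving out single libraries gave 3 to 5 members lower for responders against bystanders, 1 to 2 lower for the pool and 1 to 2 lower for responders against untreated cells, and 1 to 3 higher and 1 to 2 lower for responders against the pool. It moved Klf4 in the pool against untreated cells between -0.24 and 0.13, and Cebpe between -0.031 and 0.14 in the pool and -0.16 and 0.29 in responders against untreated cells, and between -0.22 and 0.23 in responders against the pool. In the 10 libraries without neural transcripts, 1 member was lower in the pool against untreated cells and 3 in bystanders against the pool, and Cebpe between the gates turned to 0.0045. In the 6 with them, 1 member was lower in the pool and 1 in responders against untreated cells. Responders against the pool then gave 0 members in either direction by edgeR (2 higher and 1 lower at an unadjusted p under 0.05), with 662 genes higher and 205 lower. Against untreated cells, the pool then had Cebpe at -0.023, Klf4 at 0.22 and Runx1 at -0.031, and responders Cebpe at -0.18. Against the pool, responders had Cebpe at -0.16 and Maf at -0.055. Replicate numbers did not clearly pair the libraries, though this check cannot exclude pairing. Of 24 same-numbered pairs, 12 deviated together by a correlation over 0.1. Their range was -0.468 to 0.605, beside -0.52 to 0.479 for pairs with different numbers. Of 16 libraries, 4 correlated best with their own number. With a replicate block the members called were 4 higher and 3 lower for responders against bystanders and 4 and 2 for the pool against untreated cells, and it changed no member's call. In the 6 libraries, responders and untreated cells have 1 library each, assumed to vary like the other groups. The first rule for neural transcripts, over 5 times the median of the list, named 0 libraries and gave no fit. Counts of 17 to 53 reads limit Cebpe and 41 to 179 reads Klf4.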
